A study of Mus musculus with 14 samples.

Results

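The 9 genes described here are Sall1, Spi1, Irf8, Mef2a, Mef2c, Maf, Runx1, Bhlhe41 and Id2, transcription factor genes of microglial identity that were chosen by gene name and not by a threshold on their values. They are 9 of 47729 gene identifiers in the tables, and all 9 were measured and tested. Levels come from SMART-Seq2, which copies whole transcripts of small cell numbers, in 14 libraries of microglia, the resident macrophages of the retina. Each library came from 1 retina of a wild-type C57BL/6 mouse aged 12 weeks, sorted for CD11b-positive, Ly6c-negative, Fcrls-positive cells. Sorting gave 100 to 600 cells per retina, and a lysate of 5 ul held 100 to 300 cells. The groups were retinas injected with microbeads (microbead, 3 libraries), which the labels call glaucoma, the contralateral retinas of microbead-injected mice (contralateral, 3), sham-injected retinas (sham, 4) and uninjected retinas (naive, 4). No label says whether replicates of a group came from separate mice, so the p values below measure the spread between these samples.

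Microglia carry a set of transcription factors that installs and maintains their identity. PU.1, the product of Spi1, opens macrophage enhancers together with partners such as IRF8, RUNX1 and MEF2 factors, and signals of the tissue, TGF-beta among them, add factors such as SALL1 that separate microglia from other macrophages. Genes bound by this set include receptors by which microglia sense and engulf, and loss of SALL1 or IRF8 in mice changes the shape and gene expression of microglia.

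Total reads ran from 1.34 M (microbead 1) to 14 M (contralateral 3) per library, and genes with reads from 10167 (microbead 1) to 16531 (contralateral 3). The sort and microglia markers Itgam, Fcrls, Aif1, P2ry12 and Tmem119 had reads in every library, and Ly6c2 and Chil3 of the infiltrating monocyte list had 0 reads in every library. Microbead libraries held more signal from short transcripts. Relative to the naive mean, the median log2 level of 863 genes of up to 1000 bases minus that of 1328 genes over 4000 bases was 0.788 to 1.90 in microbead, -0.277 to 0.871 in contralateral, -0.052 to 0.146 in sham and -0.275 to 0.156 in naive libraries. Values with this length trend removed are given for part of the results.

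All positions are on mm10 with GENCODE M21. Sall1 (ENSMUSG00000031665.6, chr8:89027235-89044162, minus strand), Irf8 (ENSMUSG00000041515.9, chr8:120736358-120756694, plus) and Maf (ENSMUSG00000055435.6, chr8:115682942-115707794, minus) share a chromosome. Spi1 (ENSMUSG00000002111.8) lies at chr2:91082390-91115756 on the plus strand and Mef2c (ENSMUSG00000005583.16) at chr13:83504034-83667080, also plus. Mef2a (ENSMUSG00000030557.17) lies at chr7:67231163-67372858, Runx1 (ENSMUSG00000022952.16) at chr16:92601466-92826149, Bhlhe41 (ENSMUSG00000030256.11) at chr6:145858243-145865558 and Id2 (ENSMUSG00000020644.8) at chr12:25093799-25097140, all on the minus strand. Exons of Mef2a overlap Lysmd4 on the opposite strand, which held 1344 reads against 58722 for Mef2a over all libraries. Exons of Maf, Runx1 and Bhlhe41 overlap opposite-strand genes with 46.6, 39.0 and 626 reads.

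Mef2a and Mef2c are paralogs whose proteins start with the same DNA-binding MADS box, so the first 57 codons are shown to judge whether reads could be split between them. Capitals mark the bases that differ between the pair in these GENCODE transcripts.
Mef2a: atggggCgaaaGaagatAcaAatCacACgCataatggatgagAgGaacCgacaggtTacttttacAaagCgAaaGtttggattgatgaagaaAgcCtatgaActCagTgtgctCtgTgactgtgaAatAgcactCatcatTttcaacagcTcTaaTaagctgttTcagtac
Mef2c: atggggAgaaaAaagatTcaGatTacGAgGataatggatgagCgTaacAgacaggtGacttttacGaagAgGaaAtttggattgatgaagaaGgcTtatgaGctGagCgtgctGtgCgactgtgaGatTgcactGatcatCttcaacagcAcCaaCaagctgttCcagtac
Of these 171 bases, 140 were identical (81.9%) and 31 differed, and the longest identical run was 17 bases. Over whole transcripts, 0% of 50-base windows of Mef2c were found in another gene, and 1.91% of those of Mef2a, 0.27% of those of Maf and 0.33% of those of Id2 were, the last in the pseudogene Gm6175.

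Bhlhe41 and Id2 act through E-boxes, so the stretch before a RefSeq transcript start of each that no annotated exon covers is shown, with the motif in capitals. BHLHE41 binds CACGTG-type E-boxes as a repressor, and ID2 binds no DNA but holds the E proteins, whose sites include CAGCTG.
Bhlhe41 (chr6:145865559-145865670, minus): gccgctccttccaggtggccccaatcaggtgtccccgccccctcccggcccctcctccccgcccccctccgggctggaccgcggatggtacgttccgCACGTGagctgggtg
Id2 (chr12:25096254-25096342, minus): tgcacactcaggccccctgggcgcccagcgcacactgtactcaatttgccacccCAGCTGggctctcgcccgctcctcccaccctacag
Both come from RefSeq on GRCm38.p6, and the motifs start 153 and 196 bases before the RefSeq starts of Bhlhe41 and Id2. Those starts lie at chr6:145865420 and chr12:25096092, inside the GENCODE genes given above, so the Bhlhe41 stretch lies just outside its GENCODE gene and the Id2 stretch in an intron of the GENCODE gene. Searched on both strands, CACGTG occurred in 6.02% and CAGCTG in 13% of all 32851 promoter windows, so a match is a description only.

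Per length, Mef2c, Irf8 and Spi1 were the most abundant of the 9 genes. FPKM, fragments per transcript length and library size, averaged 343 ± 153 for Mef2c, 309 ± 40.0 for Irf8, 208 ± 78.7 for Spi1, 125 ± 44.5 for Mef2a and 116 ± 97.6 for Id2 (SD, n = 14 libraries). The same measure averaged 82.7 ± 30.2 for Sall1, 77.9 ± 23.8 for Runx1, 30.9 ± 12.4 for Bhlhe41 and 24.8 ± 15.5 for Maf (SD, n = 14). Of the neighbours in this order, Runx1 and Bhlhe41 alone differed by more than their SDs added together. Among all tested genes, mean FPKM placed Mef2c at percentile 98.0 and Maf at 73.3.

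**Figure D1:**
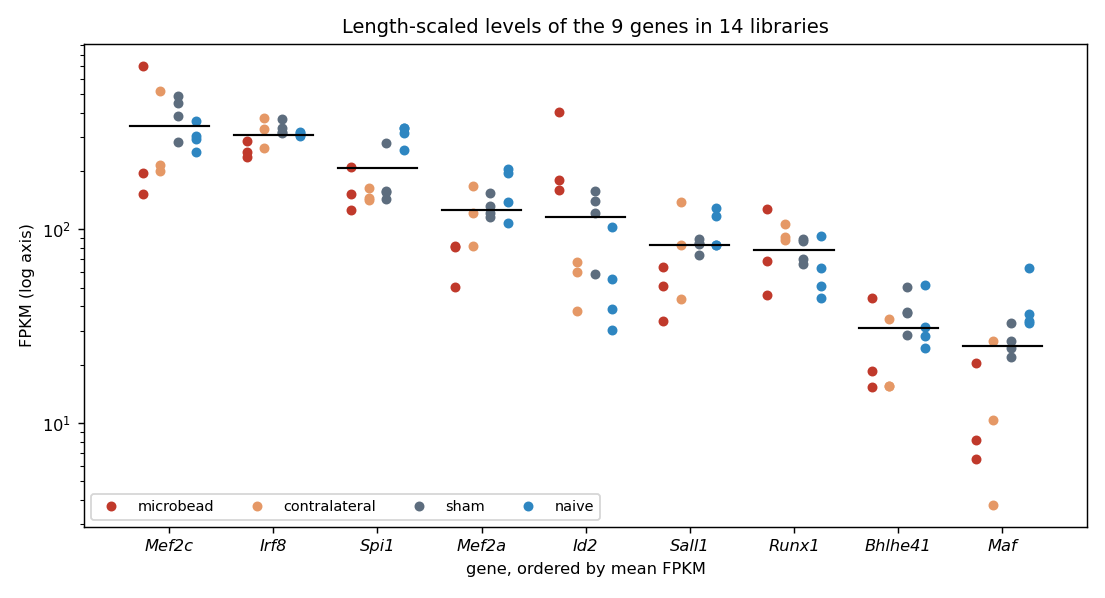
FPKM of the 9 genes (log axis), ordered by mean, with 1 point per library coloured by group and a bar at the mean of 14 libraries. Irf8 spans 237 to 376 FPKM, while Maf spans 3.77 to 63.2 FPKM.

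The genes differed in how evenly the libraries expressed them. Counts scaled to library size with TMM factors (CPM) varied least for Irf8, the interferon regulatory factor that pairs with PU.1, with a coefficient of variation of 14.1% and a highest value 1.78 times the lowest. Runx1 and Mef2a followed with coefficients of 20.4% and 20.5%. The largest were those of Id2, at 86.5%, and Maf, at 58.4%, whose highest value was 17.1 times its lowest.

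Id2 was the only one of the 9 genes that passed the test in any comparison, and it was higher in microbead retinas. ID2 is an inhibitor of DNA binding that keeps E proteins from their sites, and it is known in dendritic and innate lymphoid cells as well as in macrophages. Id2 stood at 402, 186 and 216.5 CPM in microbead libraries and at 70.0, 45.1 and 59.1 CPM in contralateral libraries. It stood at 130, 146, 55.8 and 108 CPM in sham libraries and at 29.2, 49.8, 88.5 and 37.6 CPM in naive libraries. Every microbead library lay above the other 11 libraries, a pattern that 2.09% of all tested genes share. Taken group by group, 5.11% of genes lay wholly above sham, 4.85% above naive and 5.2% above contralateral. Microbead 1, the shallowest library, was the highest.

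In microbead against naive retinas the log2 fold change of Id2 was 2.38 ± 0.45 (SE, edgeR quasi-likelihood test, adjusted p = 0.0343), with means of 268 ± 117 CPM (n = 3) and 51.3 ± 26.2 CPM (n = 4). Of all tested genes 0.21% were called in this comparison, and Id2 ranked 18 by p of 14279. Against the mean of sham and naive the log2 fold change was 1.83 ± 0.36 (edgeR adjusted p = 0.0173), where 1.28% of genes were called. That comparison was chosen with earlier results of these data known. The joint test of the 4 groups gave edgeR adjusted p = 0.0483 for Id2, with 0.224% of genes called. Against sham the log2 fold change was 1.28 ± 0.44 (edgeR adjusted p = 0.327) and against contralateral 2.21 ± 0.49 (edgeR adjusted p = 0.0841), with 0.014% and 0.028% of genes called. In sham against naive it was 1.1 ± 0.41 (edgeR adjusted p = 1.0), and the 2 groups overlapped.

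The difference of Id2 kept its direction in the microbead comparisons under all 26 alternatives, but the call against naive held in 14 of them, with log2 fold changes of 1.93 to 2.79 and adjusted p of 6.39e-05 to 0.639. The call was lost with a replicate block (edgeR adjusted p = 0.112), with the length trend removed (2.59, 0.135) and with both (0.639). It was lost with the compared groups alone (edgeR adjusted p = 0.127) and without the libraries of fewer than 12000 genes (1.94, 0.0927). It was also lost without microbead 1 (1.94, edgeR adjusted p = 0.143), sham 1 (0.0633), sham 2 (0.0584), sham 4 (0.0647), naive 1 (0.103), naive 2 (0.16) or naive 4 (0.122). Against the mean of sham and naive the call held in 21 of 26 alternatives, and among the left-out libraries microbead 1 alone ended it (1.39, edgeR adjusted p = 0.2). Removal of the length trend also ended it (2.06, edgeR adjusted p = 0.0657), as it did the joint call (0.223). A replicate block ended both (edgeR adjusted p = 0.117 and 0.182). Against contralateral it passed the test in 3 of 26, namely without a filter (0.0223), with DESeq2 (0.000824) and without microbead 3 (edgeR adjusted p = 0.0447). The joint call held in 6 of 25 alternatives, and among the left-out libraries it held without contralateral 1 (0.0429) or contralateral 3 (edgeR adjusted p = 0.0421) only. Id2 is a short gene of 1270 bases in these tables, and the median log2 fold change of 682 genes within 10% of that length was 0.19 in microbead against naive.

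**Figure D2:**
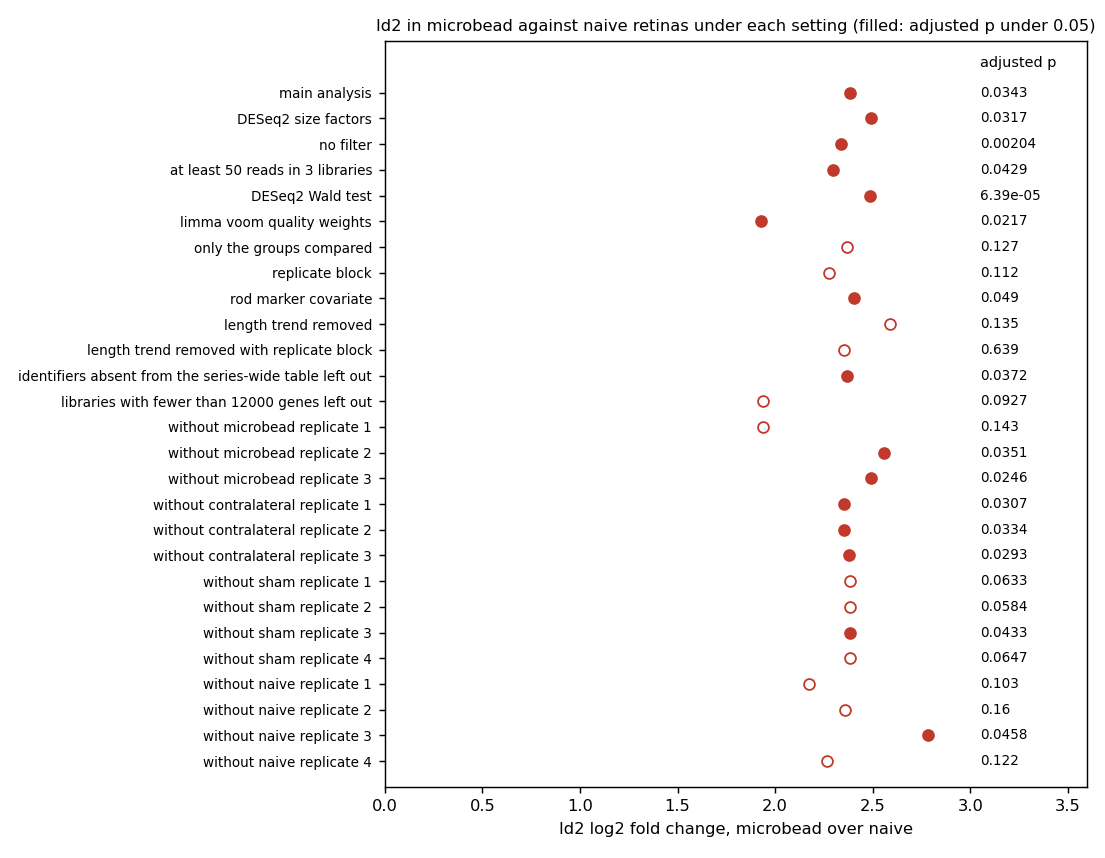
Log2 fold change of Id2 in microbead over naive retinas under each setting, with the adjusted p at the right and filled points where it is under 0.05. The values lie between 1.93 and 2.79 in all settings, and 14 of 26 alternatives keep the call.

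Cells other than microglia can carry Id2, and their markers were summed in each library. The 8 dendritic cell markers summed to 50.3 to 70.7 CPM in microbead, 24.4 to 31.1 in contralateral, 32.2 to 154 in sham and 8.81 to 54.8 CPM in naive libraries, with Ccr7 at 0 throughout. The 10 lymphocyte markers summed to 0.718 to 15.5 CPM in microbead, 0 to 17.1 in contralateral, 11.2 to 20.5 in sham and 2.17 to 31.4 CPM in naive libraries, with Cd3e, Ms4a1, Nkg7 and Trac at 0. The 10 infiltrating monocyte and macrophage markers summed to 76.8 to 182 CPM in microbead, 2.68 to 154 in contralateral, 3.87 to 102 in sham and 2.31 to 35.0 CPM in naive libraries, with 7 of the 10 above 0 in some library. Cd44 gave 23.3 to 76.8 CPM of the microbead sums, Fn1 0 to 111 CPM and S100a4 0 to 31.9 CPM. Fn1 reached 0.448 CPM in contralateral, 14.3 in sham and 0 CPM in naive libraries. S100a4 reached 2.37 CPM in contralateral, 18.1 in sham and 0 CPM in naive libraries. Ccr2, Plac8, Vcan and F13a1 each reached a higher value in another group than in microbead. The part of these markers in the Id2 result was not tested. In such bulk libraries, fewer cells of a type and less RNA per cell cannot be told apart.

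Spi1 and Maf lay below naive in microbead and contralateral retinas, without passing the test. Spi1, which encodes PU.1, stood at 57.5, 122 and 222 CPM in microbead, 154, 147 and 109 CPM in contralateral and 147, 112, 167 and 233 CPM in sham libraries. It stood at 293, 263, 271 and 235 CPM in naive libraries, which all lay above the other 10 libraries, a pattern that 0.133% of tested genes share. The highest sham library, at 232.7 CPM, lay close to the lowest naive one, at 234.9 CPM.

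The log2 fold change of Spi1 against naive was -0.98 ± 0.39 in microbead (edgeR adjusted p = 0.4), -0.96 ± 0.39 in contralateral (edgeR adjusted p = 0.949) and -0.69 ± 0.35 in sham retinas (edgeR adjusted p = 1.0). These 3 comparisons share the naive libraries. The joint test gave edgeR adjusted p = 0.601. Spi1 is short, 1142 bases on average over its isoforms, and over 567 genes within 10% of that length the median of this difference was 0.23 in microbead retinas. With the length trend removed the value was -1.24 ± 0.39 (edgeR adjusted p = 0.36). In FPKM, Spi1 ran from 126 to 209 in microbead, 141 to 164 in contralateral, 144 to 279 in sham and 258 to 336 in naive libraries, so there sham and naive overlapped. The smallest count behind any value of the 9 genes was that of Spi1 in microbead 1, with 80.0 reads.

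Maf encodes c-MAF, a basic leucine zipper factor of macrophages. It stood at 119, 49.0 and 36.4 CPM in microbead, 46.0, 15.6 and 103 CPM in contralateral, 93.4, 98.8, 134 and 115 CPM in sham and 267, 147, 128 and 154 CPM in naive libraries. All microbead and contralateral libraries lay below all naive libraries, and sham overlapped with naive. The log2 fold change against naive was -1.36 ± 0.55 in microbead (edgeR adjusted p = 0.405), -1.66 ± 0.55 in contralateral (edgeR adjusted p = 0.949) and -0.66 ± 0.49 in sham retinas (edgeR adjusted p = 1.0). With the length trend removed it was -0.69 ± 0.54 in microbead (edgeR adjusted p = 0.691) and -1.41 ± 0.55 in contralateral retinas (edgeR adjusted p = 0.486). Border-associated macrophage markers, whose cells also express Maf, summed to 222 to 330 CPM in microbead, 676 to 1052 in contralateral, 391 to 546 in sham and 377 to 542 CPM in naive libraries, with 7 of 8 markers above 0 in some library. Stab1 held most of these sums, with 127 to 217 CPM in microbead, 446 to 1009 in contralateral, 325 to 409 in sham and 319 to 425 CPM in naive libraries. Ms4a7 of the same list was at 88.3 to 102 CPM in microbead, 21.9 to 35.7 in contralateral, 22.7 to 51.6 in sham and 0.407 to 75.8 CPM in naive libraries. Other markers went the other way. Mrc1 was at 0 to 13.1 CPM in microbead and 13.5 to 63.0 CPM in naive libraries. Pf4 reached 6.46 CPM in microbead and 32.8 CPM in naive libraries. Lyve1 and Cd163 were at 0 in microbead and reached 15.8 and 2.23 CPM in naive libraries. Cbr2 had reads in sham libraries only. Their part in the Maf values was not tested.

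**Figure D3:**
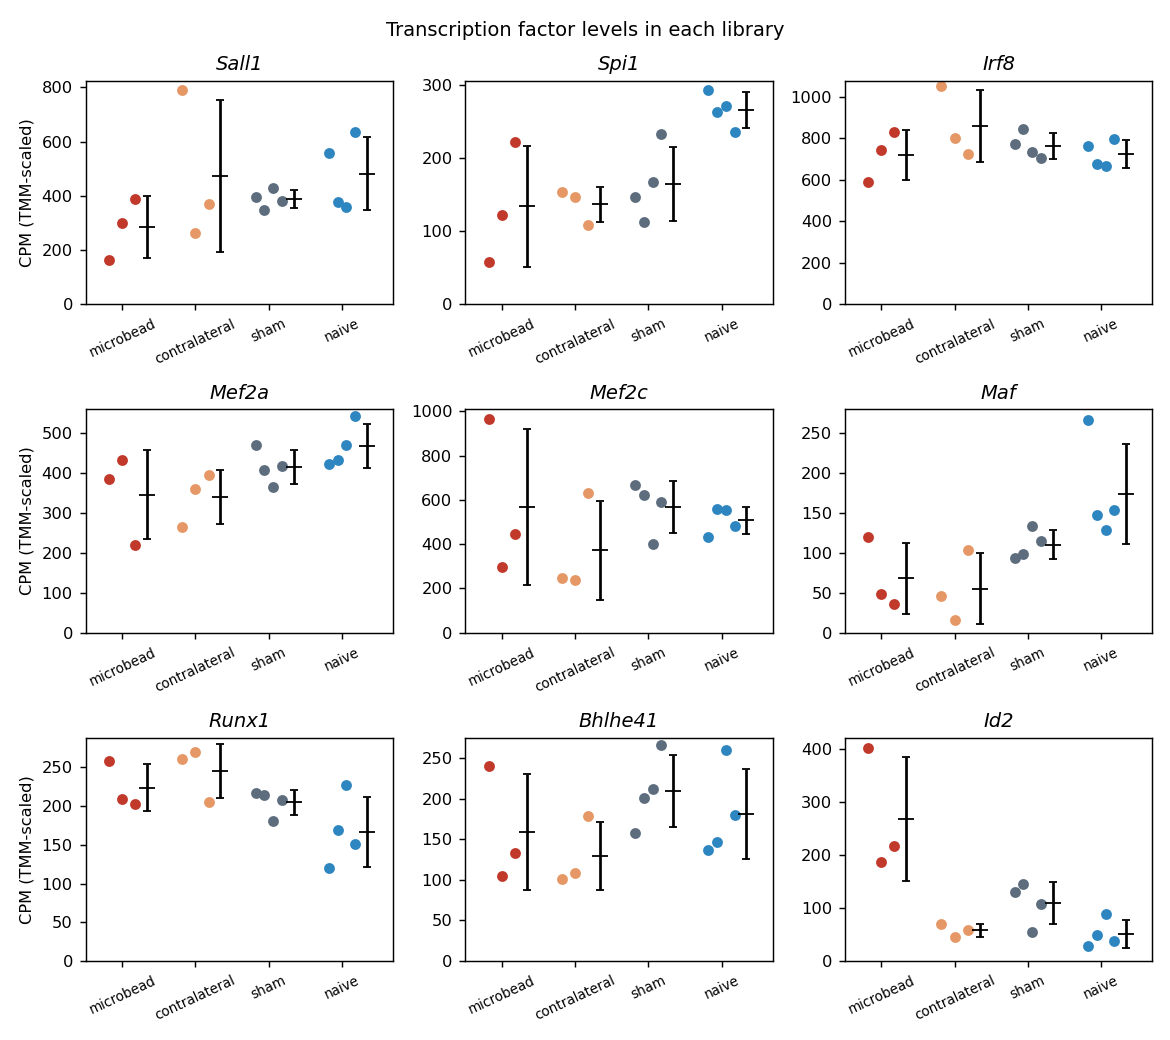
CPM of each of the 9 genes, with 1 point per library and the mean ± SD of each group beside its points (n = 3 microbead, 3 contralateral, 4 sham, 4 naive). Id2 lies at 186 CPM or more in the microbead libraries and at 146 CPM or less in all others, and Spi1 is highest in the 4 naive libraries.

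Sall1, the zinc finger repressor that separates microglia from other brain macrophages, stood at 162, 299 and 390 CPM in microbead and 792, 261 and 369 CPM in contralateral libraries. It stood at 395, 347, 429 and 382.5 CPM in sham and 557, 378, 359 and 635 CPM in naive libraries. The groups overlapped in every pair, and the log2 fold change in microbead was -0.76 ± 0.37 against naive (edgeR adjusted p = 0.479), -0.74 ± 0.39 against contralateral (edgeR adjusted p = 0.473) and -0.45 ± 0.36 against sham (edgeR adjusted p = 0.756). Sall1 is long, 5252 bases, and with the length trend removed the value against naive was -0.28 ± 0.34 (edgeR adjusted p = 0.84).

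Irf8 was the most even of the set. It stood at 590, 744 and 828 CPM in microbead, 1052, 802 and 723 CPM in contralateral, 770, 844, 733 and 703 CPM in sham and 760, 673, 664 and 796.5 CPM in naive libraries. Its log2 fold change in microbead was -0.0049 ± 0.22 against naive and -0.08 ± 0.22 against sham (edgeR adjusted p = 1.0 and 0.96). It was 0.52 ± 0.30 and 0.45 ± 0.30 with the length trend removed (edgeR adjusted p = 0.541 and 0.635), so its sign depends on that choice.

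The 2 MEF2 genes, whose products bind A/T-rich sites beside PU.1 in macrophage enhancers, had no call between groups. Mef2a stood at 386, 431 and 219 CPM in microbead, 264, 360 and 395 CPM in contralateral, 469, 407, 364 and 416 CPM in sham and 422, 432, 470 and 542 CPM in naive libraries. All contralateral libraries lay below all naive libraries (log2 fold change -0.46 ± 0.27, edgeR adjusted p = 0.968), and microbead overlapped with each group. This order did not hold on other scales: the value was 0.09 ± 0.36 with the length trend removed (edgeR adjusted p = 0.976), and in FPKM contralateral, at 81.7 to 167 FPKM, overlapped with naive, at 108 to 205 FPKM. Mef2c stood at 968, 296 and 445 CPM in microbead, 247, 240 and 630 CPM in contralateral, 666, 621.5, 400.1 and 592 CPM in sham and 433, 560, 555 and 483 CPM in naive libraries. Its microbead values ran from below to above all naive values, and its log2 fold change against naive was 0.16 ± 0.38 (edgeR adjusted p = 0.956). With the length trend removed, microbead against naive was 0.12 ± 0.37 for Mef2a and 0.87 ± 0.49 for Mef2c (edgeR adjusted p = 0.954 and 0.534), where that of Mef2a without it was -0.43 ± 0.27.

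Runx1, a partner of PU.1 from early macrophage development, stood at 258.5, 209 and 203 CPM in microbead, 260.5, 269 and 205 CPM in contralateral, 216, 214, 180 and 208 CPM in sham and 119.5, 169, 227 and 151 CPM in naive libraries. It lay above naive on average in the other groups, with log2 fold changes of 0.42 ± 0.28 in microbead, 0.56 ± 0.28 in contralateral and 0.30 ± 0.26 in sham retinas (edgeR adjusted p = 0.634, 0.955 and 1.0), and the groups overlapped. After removal of the length trend they were 1.05 ± 0.40 in microbead and 1.11 ± 0.40 in contralateral retinas (edgeR adjusted p = 0.441 and 0.484), and 0.32 ± 0.38 in sham retinas (edgeR adjusted p = 1.0). Bhlhe41 stood at 241, 105 and 133 CPM in microbead, 102, 109 and 178 CPM in contralateral, 158, 201, 212 and 266 CPM in sham and 137, 147, 260 and 180 CPM in naive libraries. Its groups overlapped in every pair, with a log2 fold change of -0.19 ± 0.36 in microbead against naive (edgeR adjusted p = 0.941), which was 0.47 ± 0.43 with the length trend removed (edgeR adjusted p = 0.762).

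Across the set, 1 of 9 genes was called in microbead against naive, 1 against the mean of sham and naive, and 0 in the other 5 comparisons by edgeR. In those 5, the genes of the set with an unadjusted p under 0.05 numbered 1 in microbead against sham (Id2), 1 in microbead against contralateral (Id2), 0 in contralateral against sham, 2 in contralateral against naive (Spi1 and Maf) and 1 in sham against naive (Id2). DESeq2 called 1 of the 9 against contralateral and 0 in the other 4. Against naive and against the mean of sham and naive, 3 (Id2, Spi1 and Maf) and 1 (Id2) of the 9 had such a p in microbead retinas, beside 10.5% and 12.0% of all genes. The shares of all genes at that unadjusted p in the 5 other comparisons were 9.75%, 11.5%, 4.86%, 5.18% and 2.66% in the same order, and 0.0% of genes were called in the last 3 of these comparisons. In microbead against naive, 2 of 9 genes lay wholly below naive (Spi1 and Maf) and 1 wholly above (Id2), where 6.98% and 4.85% of tested genes did. In contralateral against naive, 3 of 9 lay wholly below (Mef2a, Spi1 and Maf), where 3.73% of tested genes did, and in sham against naive 1 did (Spi1), where 1.37% did. The median log2 fold change of the 9 genes was -0.19 in microbead against naive, beside -0.14 over all genes, and -0.45 in contralateral against naive, beside -0.06.

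In FPKM, which carries no TMM factor and uses isoform lengths estimated per library, Sall1, Mef2a, Irf8 and Maf lay wholly below sham in microbead libraries, and these 4 with Spi1 wholly below naive. Of all tested genes 10.7% lay wholly below sham and 9.84% wholly below naive on that scale. The median log2 ratio over all genes was -0.29 against sham and -0.31 against naive in FPKM, and -0.11 and -0.12 in CPM, both with a pseudocount of 1. Sall1 was at 33.4 to 64.2 FPKM in microbead, against 73.6 to 89.5 in sham and 82.8 to 129 in naive libraries. Irf8 was at 237 to 287 FPKM in microbead, against 315 to 371 in sham and 303 to 317 in naive libraries. Id2 was wholly above every other group on both scales, with 160 to 405 FPKM in microbead, 37.9 to 68.1 in contralateral, 58.8 to 157 in sham and 30.2 to 103 FPKM in naive libraries. In FPKM 3.16% of genes lay wholly above sham, 3.21% above naive and 4.12% above contralateral in microbead libraries.

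**Figure D4:**
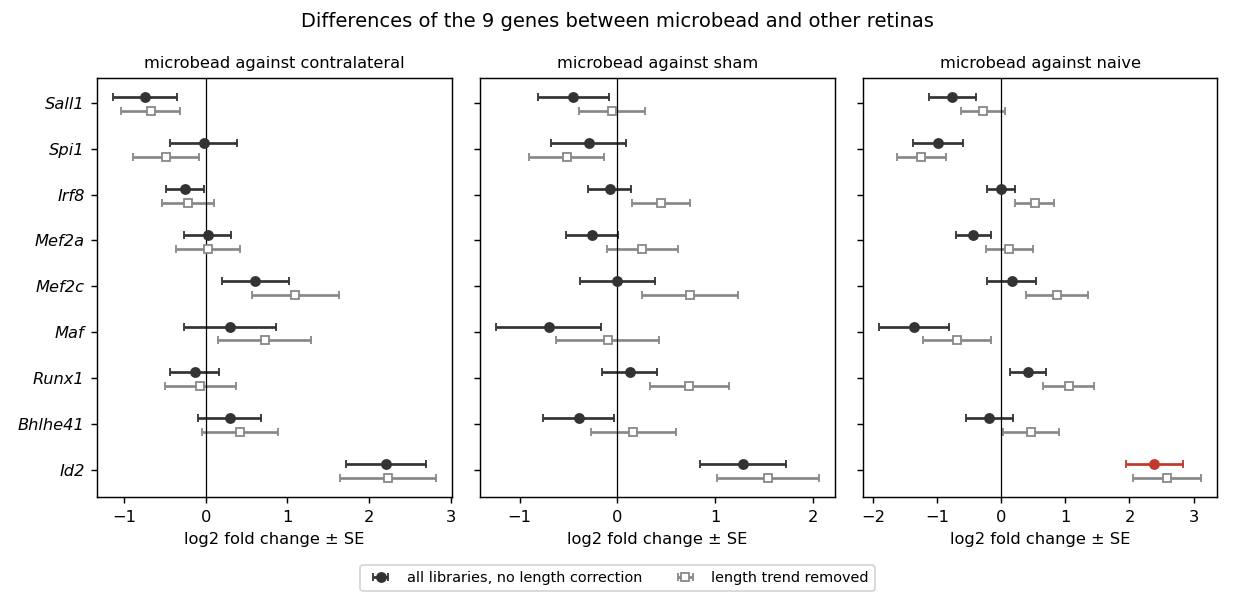
Log2 fold change ± SE of the 9 genes in microbead against contralateral, sham and naive retinas, with filled circles for the main analysis (red where called) and open squares for values with the length trend removed. Id2 against naive, at 2.38, is the only value called, and none of the values with the length trend removed is.

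Id2 was followed across the 14 libraries most closely by H3f3b, a histone variant gene (Pearson r of log2 CPM 0.919), Nfkbia, the inhibitor of NF-kB (0.902), and Ccl12, a chemokine (0.898), among 8132 genes of at least 10 CPM. Runx1 was followed by the chemokine genes Ccl3 (0.909) and Ccl4 (0.884) and by Smo (0.863). After removal of the length trend the values of Ccl3, Ccl4 and Smo were 0.655, 0.796 and 0.954, while those of H3f3b, Nfkbia and Ccl12 were 0.888, 0.9 and 0.866. Sall1 was followed most closely by Ptpa (0.953), Maf by Supt20 (0.916), Mef2c by Zfp40 (0.915), Mef2a by Btaf1 (0.863), Spi1 by Atxn2l (0.862), Irf8 by Abi3 (0.841) and Bhlhe41 by Smim15 (0.826). After removal of the length trend the value was 0.878 for Ptpa, 0.901 for Supt20, 0.814 for Zfp40, 0.759 for Btaf1, 0.812 for Atxn2l, 0.648 for Abi3 and 0.612 for Smim15, of which Supt20 alone stayed the closest gene. Within the set the closest pair was Mef2c and Bhlhe41 (0.764), and the most opposed was Maf and Runx1 (-0.684). Next came Irf8 with Mef2c (-0.659) and with Bhlhe41 (-0.622), then Id2 with Sall1 (-0.619) and with Spi1 (-0.606). These orders changed once that trend was removed: Irf8 and Runx1 were then the closest pair (0.849, beside 0.09 without), Spi1 and Id2 the most opposed (-0.713), and Maf and Runx1 stood at -0.465. The points of each value share a library, its depth and its length trend, so these are descriptions.

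Relatives and partners of the 9 genes gave no call. Of 29 fixed, 23 were tested, 0 were called by edgeR in any comparison, and 2 had an unadjusted p under 0.05 in microbead against naive, beside 10.5% of all genes. Per length, the relatives of Irf8 averaged 283 FPKM for Irf5, 141 FPKM for Irf3 and 102 FPKM for Irf2. Mef2d, the paralog of Mef2a and Mef2c, averaged 42.5 ± 13.6 CPM in microbead and 96.7 ± 18.6 CPM in naive retinas, with groups that did not overlap (log2 fold change -1.19 ± 0.49, edgeR adjusted p = 0.419). Bhlhe40, the relative of Bhlhe41, averaged 14.3 ± 13.8 CPM in microbead and 0.0995 ± 0.199 CPM in naive retinas, and the groups overlapped (edgeR adjusted p = 0.357). Mef2b, Sall4, Spib, Spic, Id1 and Id4 had too few reads to be tested. Of 37 other macrophage transcription factors 32 were tested and 0 called by edgeR, with 5 at an unadjusted p under 0.05 in microbead against naive, beside 10.5% of all genes. Among them were Klf2 (167 ± 122 CPM in microbead, 53.0 ± 14.1 CPM in naive), Atf3 (545 ± 118 and 212 ± 76.0 CPM in the same groups) and Egr1 (2906 ± 658 and 1842 ± 359 CPM), with edgeR adjusted p of 0.334, 0.32 and 0.334. Sham retinas stood at 99.5 ± 25.2 CPM for Klf2, 460 ± 211 CPM for Atf3 and 2923 ± 500.1 CPM for Egr1, and microbead against sham was 0.75 ± 0.60, 0.25 ± 0.48 and -0.0084 ± 0.24 on the log2 scale.

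Genes known as targets of PU.1 and IRF8 moved in both directions. Of 19 tested, 3 rose and 1 fell by edgeR in microbead against the mean of sham and naive, where 1.12% of all genes were called higher and 0.161% lower. The list and that comparison were chosen with earlier results of these data known, so these counts are a description. Fcgr1, an Fc receptor, averaged 788 ± 77.0 CPM in microbead and 318 ± 72.2 CPM in sham and naive libraries together (log2 fold change 1.32 ± 0.22, edgeR adjusted p = 0.00774), and it also rose against naive alone (1.52 ± 0.26, edgeR adjusted p = 0.0269). Aif1, which encodes IBA1, rose by 1.34 ± 0.29 and Tyrobp, the adaptor of TREM2, by 1.16 ± 0.27 on the log2 scale (edgeR adjusted p = 0.0278 and 0.0362). Cx3cr1, the fractalkine receptor, fell to 2665 ± 836 CPM in microbead, against 4931 ± 768 CPM in sham and naive libraries (log2 fold change -0.88 ± 0.20, edgeR adjusted p = 0.0345). Removal of the length trend ended the calls of Aif1, Tyrobp and Cx3cr1, and left a log2 fold change of 0.42 for Aif1, 0.05 for Tyrobp and -0.35 for Cx3cr1 (edgeR adjusted p = 0.51, 0.968 and 0.605), whereas the call of Fcgr1 held in 25 of 26 alternatives. Without microbead 1 the adjusted p was 0.328 for Aif1, 0.426 for Tyrobp and 0.173 for Cx3cr1, and without microbead 2 it was 0.142 for Cx3cr1. Leaving out sham 1, sham 2, sham 4, naive 2 or naive 3 ended the call of Aif1, any sham or naive library that of Tyrobp, and any of them but naive 1 that of Cx3cr1, with edgeR adjusted p of 0.0533 to 0.0845. The call of Fcgr1 against naive alone held in 17 of 26 alternatives. It was lost with a replicate block (edgeR adjusted p = 0.0652), with the length trend removed (0.052), with both (0.205) or with the compared groups alone (0.084). It was also lost without sham 4 (edgeR adjusted p = 0.0504) or without any 1 naive library (0.0791 to 0.114). The median log2 fold change of the 19 genes in microbead against the mean of sham and naive was 0.29, beside -0.12 over all genes.

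Of 25 homeostatic microglia genes 1 fell (Cx3cr1) and 0 rose in microbead against the mean of sham and naive by edgeR, beside 0.161% of all genes lower and 1.12% higher, and 8 lay lower and 3 higher at an unadjusted p under 0.05, beside 5.81% and 6.16%. Their median log2 fold change was -0.30, beside -0.12 over all genes. P2ry12, a purinergic receptor, averaged 686 ± 498 CPM in microbead and 1944 ± 360 CPM in sham and naive libraries (edgeR adjusted p = 0.0948), and Csf1r, the receptor that microglia need to survive, 3688 ± 649 and 6142 ± 852 CPM in the same groups (edgeR adjusted p = 0.0508). Of 20 tested genes of TGF-beta and BMP signalling, which sustains Sall1, 0 were called by edgeR in any comparison, and 5 lay lower and 1 higher at an unadjusted p under 0.05 against the mean of sham and naive, beside 5.81% and 6.16% of all genes. Tgfbr1, a receptor of TGF-beta, averaged 380.5 ± 116 CPM in microbead and 670 ± 46.1 CPM in sham and naive libraries, and Smad3, its effector, 32.4 ± 27.2 and 93.4 ± 19.6 CPM (edgeR adjusted p = 0.14 and 0.245). Sall1 itself had edgeR adjusted p = 0.464 in that comparison. The counts and values of these lists are given without removal of the length trend, and microbead libraries held more signal from short transcripts. With the trend removed, the log2 fold change of Cx3cr1 went from -0.88 to -0.35 (edgeR adjusted p = 0.605), and its call was lost. Whether the lower values of P2ry12, Csf1r, Tgfbr1 and Smad3 depend on that trend was not tested.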

How the data were processed

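RNA was measured by SMART-Seq2 in 14 libraries. The deposited single-library tables give expected counts (estimated reads per gene, not scaled) per the file headers. The deposited TPM and FPKM are scaled by transcript length and library total, per the file headers. A series-wide deposited table gives FPKM and gene names. Tools listed in the submitters' processing notes, with no role stated, are DESeq2 1.30.1, Salmon 1.4.0 and R 4.0.3, and the build is mm10. How strand was treated in counting is not stated in these sources.

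Expected counts were rounded and fitted in R 4.3.3 with edgeR 4.0.16: filterByExpr with a minimum count of 10 (14279 genes), TMM scaling, 1 quasi-likelihood model (robust) of the 4 groups, 10 residual degrees of freedom, common biological coefficient of variation 1.13, two-sided tests, Benjamini-Hochberg adjustment over all genes, threshold 0.05. Each standard error was taken as the absolute log2 difference over the square root of its F statistic. Likeness is Pearson's r of log2 CPM (prior count 2). Alternatives used DESeq2 1.42.0, limma 3.58.1 (voom with quality weights), other filters and scalings, a rod-marker covariate, a replicate block, removal of a length trend (lowess, span 0.5, genes of at least 10 CPM, through offsets) and each library left out. The fit was tested on simulated data, where recovery of known changes was required only at a spread far below that of these data. It therefore does not show how well changes are recovered at the spread of these data.

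Named genes are the 9 members, genes of the lists past the threshold, up to 4 per list with the smallest p, and measured relatives. The members, the lists and the comparison with the mean of sham and naive were chosen with earlier results of these data known. The promoter table had no entry matched to Spi1 or Maf. TPM was not used for tests.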

Additional observations from a re-analysis of the deposited data

How the results depend on the processing

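Comparisons are shortened here to M (microbead), C (contralateral), S (sham), N (naive) and SN (the mean of sham and naive), each pair as the first over the second. Of 1638 log2 fold changes of the 9 genes under alternatives 105 changed sign, and 0 of these were past the threshold. Id2 kept its sign in all but 2, both in C/N. The main analysis called 2 genes in M/S, 30 in M/N, 4 in M/C, 183 in M/SN, 32 in the joint test and 0 in the others, and 1 of the 9 (Id2) in M/N, M/SN and the joint test. The cause of the changes below was not tested.
With DESeq2 size factors, the genes called numbered 46 in M/N and 54 in the joint test. With DESeq2 size factors, log2 fold changes of the opposite sign were, in M/S 0.13 for Mef2c, in M/N 0.040 for Irf8, in M/SN 0.0066 for Irf8. Without a filter, the genes called numbered 139 in M/S, 162 in M/N, 157 in M/C, 22 in C/S, 21 in C/N, 14 in S/N, 359 in M/SN and 314 in the joint test, and 1 of the 9 in M/C. Without a filter, log2 fold changes of the opposite sign were, in M/C 0.022 for Spi1. With at least 50 reads in 3 libraries, the genes called numbered 0 in M/S and 2 in M/C, and 0 of the 9 in the joint test. With at least 50 reads in 3 libraries, log2 fold changes of the opposite sign were, in M/SN -3.8e-05 for Mef2c. With DESeq2's Wald test, the genes called numbered 463 in M/S, 576 in M/N, 664 in M/C, 72 in C/S, 71 in C/N, 28 in S/N and 805 in M/SN, and 1 of the 9 in M/C. DESeq2's likelihood ratio test, used for the joint test, called 478. With DESeq2's Wald test, log2 fold changes of the opposite sign were, in M/S 0.13 for Mef2c, in M/N 0.041 for Irf8, in M/C 0.0018 for Spi1, in M/SN 0.0074 for Irf8. With limma voom, the genes called numbered 89 in M/S, 204 in M/N and 87 in the joint test, and 0 of the 9 in the joint test. With limma voom, log2 fold changes of the opposite sign were, in M/S 0.010 for Irf8, in M/N -0.38 for Mef2c and 0.13 for Irf8, in M/C -0.12 for Mef2a, -0.0010 for Mef2c, 0.27 for Spi1, -0.54 for Maf and -0.14 for Bhlhe41, in C/N 0.18 for Sall1, in M/SN -0.43 for Mef2c and 0.071 for Irf8. With only the compared groups, the genes called numbered 0 in M/S, 5 in M/N, 0 in M/C and 315 in M/SN, and 0 of the 9 in M/N. With only the compared groups, log2 fold changes of the opposite sign were, in M/C 0.010 for Spi1. With the replicate block, the genes called numbered 0 in M/S, 1 in M/N, 0 in M/C, 70 in M/SN and 1 in the joint test, and 0 of the 9 in M/N, M/SN and the joint test. With the replicate block, log2 fold changes of the opposite sign were, in M/N 0.0077 for Irf8, in C/N 0.0074 for Sall1, in M/SN -0.0044 for Mef2c. With the rod covariate, the genes called numbered 0 in M/S, 17 in M/N, 1 in M/C and 8 in the joint test, and 0 of the 9 in the joint test. With the length trend removed, the genes called numbered 1 in M/S, 4 in M/N, 0 in M/C, 10 in M/SN and 3 in the joint test, and 0 of the 9 in M/N, M/SN and the joint test. With the length trend removed, log2 fold changes of the opposite sign were, in M/S 0.26 for Mef2a, 0.74 for Mef2c, 0.45 for Irf8 and 0.16 for Bhlhe41, in M/N 0.12 for Mef2a, 0.52 for Irf8 and 0.47 for Bhlhe41, in C/S 0.22 for Mef2a, in C/N 0.39 for Sall1, 0.093 for Mef2a and 0.051 for Bhlhe41, in M/SN 0.19 for Mef2a, 0.48 for Irf8 and 0.31 for Bhlhe41. With that and the replicate block together, the genes called numbered 0 in M/S, 1 in M/N, 0 in M/C, 3 in M/SN and 1 in the joint test, and 0 of the 9 in M/N, M/SN and the joint test. With that and the replicate block together, log2 fold changes of the opposite sign were, in M/S 0.020 for Sall1, 0.24 for Mef2a, 0.53 for Mef2c, 0.45 for Irf8 and 0.22 for Bhlhe41, in M/N 0.094 for Mef2a, 0.52 for Irf8 and 0.53 for Bhlhe41, in C/S 0.22 for Mef2a and 0.069 for Spi1, in C/N 0.46 for Sall1, 0.073 for Mef2a and 0.13 for Bhlhe41, in M/SN 0.17 for Mef2a, 0.48 for Irf8 and 0.38 for Bhlhe41. Without identifiers absent from the series-wide table, log2 fold changes of the opposite sign were, in M/C 0.024 for Spi1. Without libraries of fewer than 12000 genes, the genes called numbered 7 in M/S, 9 in M/C, 60 in M/SN and 11 in the joint test, and 0 of the 9 in M/N, M/SN and the joint test. Without libraries of fewer than 12000 genes, log2 fold changes of the opposite sign were, in M/S 0.017 for Irf8, 0.034 for Spi1 and -0.017 for Runx1, in M/N -0.48 for Mef2c and 0.097 for Irf8, in M/C -0.026 for Mef2a, -0.27 for Mef2c, 0.40 for Spi1, -0.82 for Maf and -0.25 for Bhlhe41, in C/N 0.23 for Sall1, in M/SN -0.57 for Mef2c and 0.057 for Irf8.
Leaving out each library in turn gave 0 to 134 genes called in M/S, 0 to 168 genes called in M/N, 0 to 162 genes called in M/C, 0 to 21 genes called in C/S, 0 to 11 genes called in C/N, 0 to 0 genes called in S/N, 27 to 285 genes called in M/SN and 5 to 94 genes called in the joint test. Of the 9, 0 to 1 were called in M/N, M/C, M/SN and the joint test, and 0 to 0 in the others. Log2 fold changes that changed sign ran over -0.65 to 0.28 for Mef2c in M/S, -0.21 to 0.017 for Irf8 in M/S, -0.89 to 0.034 for Spi1 in M/S, -0.017 to 0.17 for Runx1 in M/S, -0.48 to 0.45 for Mef2c in M/N, -0.13 to 0.097 for Irf8 in M/N, -0.63 to 0.041 for Bhlhe41 in M/N, -0.13 to 0.31 for Mef2a in M/C, -0.0015 to 1.22 for Mef2c in M/C, -0.54 to 0.38 for Spi1 in M/C, -0.37 to 1.13 for Maf in M/C, -0.11 to 0.59 for Bhlhe41 in M/C, -0.35 to 0.54 for Sall1 in C/S, -0.066 to 0.28 for Irf8 in C/S, -0.65 to 0.23 for Sall1 in C/N, -0.080 to 0.58 for Id2 in C/N, -0.57 to 0.37 for Mef2c in M/SN and -0.17 to 0.057 for Irf8 in M/SN.
The replicate numbers were not shown to pair the libraries. Over 19 same-numbered pairs the correlation of deviations from group means, across 8718 genes, was -0.046 to 0.14, with 3 over 0.1, and its median was -0.006, beside 0.003 for other pairs. The 3 over 0.1 were all among replicate 3 libraries. By their labels only microbead and contralateral retinas can share a mouse. Their 3 same-numbered pairs stood at 0.023, -0.046 and 0.121, too few to settle whether they are paired. Of the 14 libraries 7 were closest to one of their own number, a share not compared with chance. With the replicate block Id2 had adjusted p = 0.112 in M/N and 0.117 in M/SN. The block also ended the calls of Aif1 (1.25, adjusted p = 0.0752), Tyrobp (1.09, 0.101) and Cx3cr1 (-0.90, 0.0712) in M/SN and of Fcgr1 in M/N (1.47, 0.0652), while Fcgr1 kept its call in M/SN. Alternatives for the called genes of the lists were added after seeing the data. Microbead 1, with 1.34 M reads, limits the precision of values that rest on few reads there, such as that of Spi1 (80.0 reads).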
